A study of Saccharomyces cerevisiae with 28 samples.

Results

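The stable unannotated transcripts (SUTs) are non-coding RNAs of budding yeast, and the 200 most abundant of the 847 SUTs counted in these total RNA libraries are described here. They were chosen by their raw count summed over the 8 total RNA libraries of TAP-tagged strains, so their levels in those libraries are a description and were not tested. Total RNA was sequenced, and RNA bound by the La-related proteins (LARPs) Sro9 and Slf1 was mapped by PAR-CLIP, a crosslinking method, in Saccharomyces cerevisiae left untreated or given 0.4 mM H2O2 for 15 min. Total RNA that played no part in the choice came from untagged WT (BY4741), sro9Δ and slf1Δ cells, in which the whole reading frame of the gene is replaced, and the tagged libraries came from Sro9-TAP and Slf1-TAP cells, with the tag at the C-terminus of the gene at its own locus. All strains derive from BY4741, exponential cultures were split before treatment, and each strain and condition had 2 libraries.

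SUTs are made by RNA polymerase II and, unlike cryptic unstable transcripts (CUTs), which the nuclear exosome removes, they can be seen in normal cells. Many start from nucleosome-free regions that also serve a neighbouring gene, and many run antisense to a gene. Transcription of some is known to alter the expression of the gene they overlap. In a cell given peroxide, the transcription factors Yap1 and Msn2/Msn4 raise antioxidant and general stress genes, while many genes of growth fall.

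Positions could be given for few SUTs, because the RefSeq annotation of the R64 build names 9 SUTs and 1 of the 200, SUT053, the fourth most abundant. Its annotated span of 1441 bases, on the plus strand of chromosome IV, begins at 506334 and ends at 507774. SUT468, which was outside the 200, is annotated on the opposite strand from 506546 to 507450 and covers 62.8% of SUT053, and the coding gene MRH1 begins downstream at 508147. The region around its annotated start is shown because SUT053 rose with H2O2 in each untagged strain, and capitals mark the first 50 bases of the transcript after the 250 bases before it (chrIV:506084-506383, plus strand).
SUT053 start: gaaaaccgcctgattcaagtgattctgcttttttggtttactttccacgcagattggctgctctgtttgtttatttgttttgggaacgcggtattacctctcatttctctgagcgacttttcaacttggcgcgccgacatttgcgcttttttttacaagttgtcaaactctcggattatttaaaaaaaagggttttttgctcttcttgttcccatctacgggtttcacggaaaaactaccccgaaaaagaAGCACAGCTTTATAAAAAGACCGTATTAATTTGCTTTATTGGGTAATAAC
On both strands, this window held 0 copies of the Yap1 site TTACTAA and 0 of the stress response element CCCCT, the letters bound by Msn2 and Msn4. Of 6001 windows of the same length at the annotated starts of coding genes, 7.45% held the first and 21.6% the second, and for those genes the start is that of the coding sequence.

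SUT650, rank 101, is shown because PAR-CLIP clusters, short stretches of overlapping reads called as binding sites, were assigned to it by the study. Each of its 3 cluster sequences matched R64 at 1 place, on the minus strand of chromosome X, and 2 of them lie opposite the HMS2 coding gene (704196 to 705272, plus strand), which encodes a protein related to heat shock transcription factors. The strongest cluster by reads had few T read as C, the mark of a crosslink (0.0202% to 0.0625% of all T read). It is shown with 20 bases on each side from the genome (chrX:704806-704859, minus strand), with the cluster of 14 bases in capitals.
SUT650 cluster: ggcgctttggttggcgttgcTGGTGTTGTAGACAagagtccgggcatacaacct
On SUT053, 1 cluster was found on its own strand among the 8 PAR-CLIP libraries (chrIV:506982-507023), and in it capitals mark each T, the base at which a crosslink is read as C.
SUT053 cluster: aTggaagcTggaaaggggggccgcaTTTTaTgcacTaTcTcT
That cluster had 27 reads in 1 library, labelled Slf1-TAP H2O2 replicate 2.

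The 2 sets of libraries differed in depth. The tagged libraries held 32079450 to 41098229 counts, with 0.056% to 0.625% on the rRNA locus. The untagged libraries held 3323216 to 21447260 counts, but 1.65% to 94.8% lay on the rRNA locus, and without it 172267 counts remained in slf1Δ H2O2 replicate 1 and 242555 in sro9Δ untreated replicate 1, where the median member had 3 counts. The deletions matched their labels, with 0 to 1 count of SRO9 in sro9Δ and 0 of SLF1 in slf1Δ. LEU2, URA3 and MET17, deleted in BY4741, had 0 counts in each untagged library, while HIS3, partly deleted in BY4741, had 7 to 709. In the untagged libraries all 15 peroxide response genes examined rose in WT, and SRX1, the sulfiredoxin gene, went from 5 and 60 counts to 10318 and 1356. In the tagged libraries SRX1 had 13633 to 36468 counts in the 4 libraries labelled untreated and 39 to 138 in the 4 labelled H2O2, which is against the labels. The tagged libraries are therefore named by label throughout, and a rise in those labelled untreated is not called a response to H2O2 or to its absence.

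In the tagged libraries the members held 71.3% of all SUT counts and the 10 most abundant held 17.4% of the members' counts. Summed raw counts ran from 20047 for SUT514 to 1569 for SUT327 at rank 200, with a median of 3035.5. The edge of the choice was narrow, with SUT666 at 1587 just inside, and SUT759 at 1568 and SUT207 at 1563 just outside. The members made up 0.217% to 0.379% of the counts outside the rRNA locus in the tagged libraries and 0.448% to 0.997% in the untagged ones. In bulk RNA, fewer transcribing cells and fewer copies per cell cannot be told apart. Levels are given as CPM, the count scaled to a fixed total of non-rRNA counts, after TMM scaling, which sets libraries on a common scale by the bulk of their features.

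Of 7649 features that passed a filter on low counts, 1682 stood higher in all 4 libraries labelled untreated than in all 4 labelled H2O2. Of the 200 members 79 did so, and of the 10 most abundant SUTs 6 did. The widest gap was at SUT060, with 76.0 and 81.8 CPM in the libraries labelled Sro9-TAP untreated and 108 and 99.0 in those labelled Slf1-TAP untreated, against 3.29 and 3.65 and then 2.92 and 3.13 in the libraries labelled H2O2. SUT720 had 108, 113, 78.3 and 36.7 CPM in the libraries labelled untreated against 5.63, 5.87, 3.50 and 4.01. These groups did not overlap. SUT322 (log2 difference 2.84), SUT240 (2.36), SUT053 (1.44) and SUT802 (1.21) were the others. For SUT514, the most abundant, the libraries labelled Sro9-TAP had 37.7 and 38.4 CPM labelled untreated and 91.3 and 94.5 labelled H2O2, while those labelled Slf1-TAP had 66.9 and 57.7 against 78.9 and 61.9. Its 2 label groups overlapped, as did those of SUT342, SUT350 and SUT670.

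**Figure D1:**
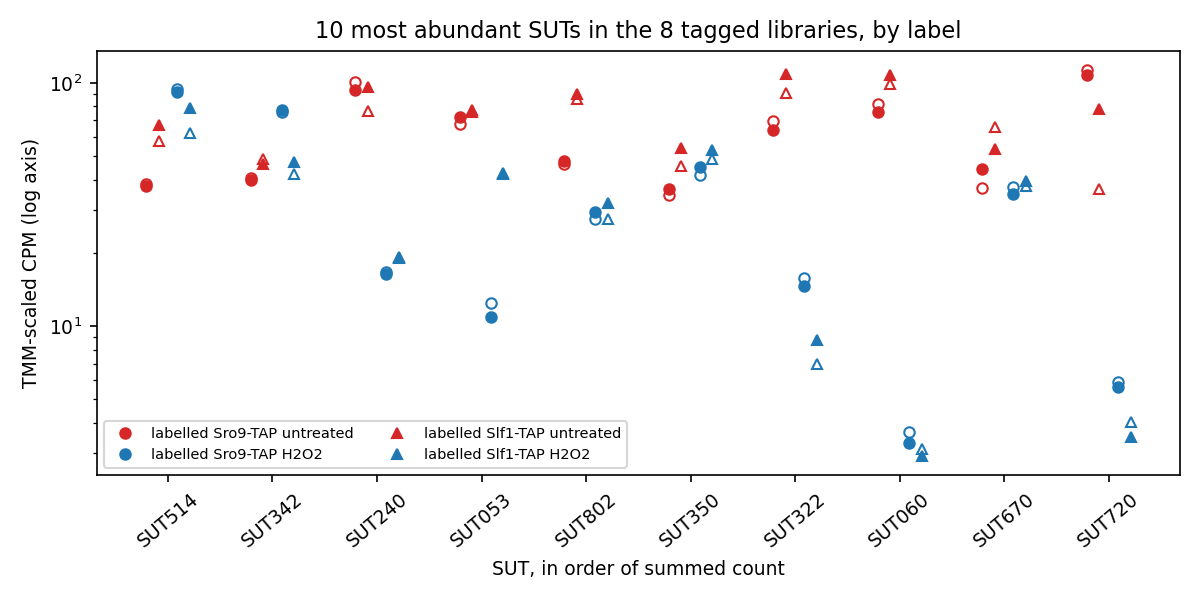
Level of the 10 most abundant SUTs (x axis) in each of the 8 tagged libraries as TMM-scaled CPM on a log axis, with red for libraries labelled untreated, blue for those labelled H2O2, circles for Sro9-TAP, triangles for Slf1-TAP and open symbols for replicate 2. SUT060 lies at 76.0 to 108 CPM in the libraries labelled untreated and at 2.92 to 3.65 in those labelled H2O2, while SUT350 overlaps.

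Over all 200 members, 40 were at least 2-fold higher in the mean of the libraries labelled untreated with no overlap of the 8 libraries, where 10.8% of all 7649 features that passed the filter on low counts were. In the other direction it was 2 of 200 members against 8.98% of all features. The median difference was 0.36 on the log2 scale (CPM + 0.1) for the members and -0.01 for all features. For SUTs outside the 200, 55 of 587 were 2-fold higher. These are descriptions, because the same counts chose the members. After SUT060 (4.77) and SUT720 (4.11), the largest differences were at SUT009 (3.73), SUT244 (3.21), SUT322 (2.84) and SUT579 (2.64). SUT244 had 10.3, 11.7, 13.1 and 14.1 CPM in the libraries labelled untreated and 1.48, 0.961, 1.64 and 0.884 in those labelled H2O2. The 2 members in the other direction were SUT388 (-1.44), with 18.8, 18.8, 9.77 and 8.56 CPM against 31.2, 35.7, 42.2 and 43.4, and SUT339 (-1.08). The sign was the same under both tags for 150 of 200 members (75.0%), near the 73.9% of all features.

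The pair of SUT668 and SRX1 shows how the sets differed. SUT668 was not among the 200, since it stood at rank 768 with 74 counts over the tagged libraries, where SRX1 had 116371. In the untagged libraries the pair was nearly identical, as in WT after H2O2 with 10357 and 1359 counts for SUT668 and 10318 and 1356 for SRX1. A member was called near-equal to a coding gene where the counts differed by at most 10% or by at most 5 counts in every library considered, and the gene had at least 50 counts. Over all 20 libraries 0 of 200 members met this, over the 12 untagged libraries 36 did (18.0%), and over the 8 tagged libraries 3 did. The counts rested on the tolerance, with 14 untagged and 0 tagged at 5% or 3 counts, and 117 (58.5%) and 98 (49.0%) at 20% or 10 counts, where 56 and 63 members matched several genes. At 10% or 5 counts the rule matched 30.9% of the other SUTs, 18.9% of CUTs and 3.33% of coding genes (with another coding gene) in the untagged libraries, and 4.95%, 16.7% and 10.7% in the tagged libraries. The libraries were made with a stranded kit per the study's methods, but the strand setting of the counting is not given in the sources used here. Where it was not used, reads of a SUT and of a gene on the other strand cannot be told apart.

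In the tagged counts most of these pairs came apart by more than 2-fold. For some, the gene was far above the SUT. SUT069 had 49224 counts over the untagged libraries and HXT3, a glucose transporter gene, 47676, whereas in the tagged libraries SUT069 had 1722 and HXT3 215429, so that the SUT stood at 0.799% of the gene. SUT016 with TIP1, a cell wall mannoprotein gene, went from 103% of the gene's count to 3.92%. SUT644 with YJR096W (4.20%) and SUT268 with DPH5, a gene of diphthamide synthesis (5.74%), were of the same kind. So were SUT524 with AGX1, a glyoxylate aminotransferase gene (12.3%), and SUT063 with CTA1, the peroxisomal catalase gene (13.7%). SUT204 with FAR1, a gene of cell cycle arrest in mating, stood at 14.9%.

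For others, the SUT was far above the gene. SUT746 had 3045 counts over the tagged libraries and MER1, a meiotic splicing gene, 31, while the untagged sums were 219 and 210. SUT498 had 2736 against 61 for STL1, a glycerol transporter gene, and SUT692 had 1704 against 76 for GAL2, the galactose permease gene. In further pairs the SUT and gene were within 2-fold of each other in the tagged libraries too, among them SUT574 with RIM4, a regulator of meiosis (73.8%), SUT434 with GDH3, a glutamate dehydrogenase gene (191%), SUT694 with SUL2, a sulfate permease gene (113%), and SUT189 with PDR11, a sterol transporter gene (174%). Of the 15 most abundant near-equal members, those not yet named were SUT334 with YNL095C (129%), SUT485 with ARO10 (148%), SUT043 with MRK1 (146%), SUT255 with REX2 (12.0005%) and SUT374 with GAC1 (46.1%). SUT367 and SUT086, low in the untagged libraries, met the rule with 3 and 10 genes each, and they were the 2 members that did not pass the filter on low counts there. Overlap on the genome was not analysed here for these pairs.

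**Figure D2:**
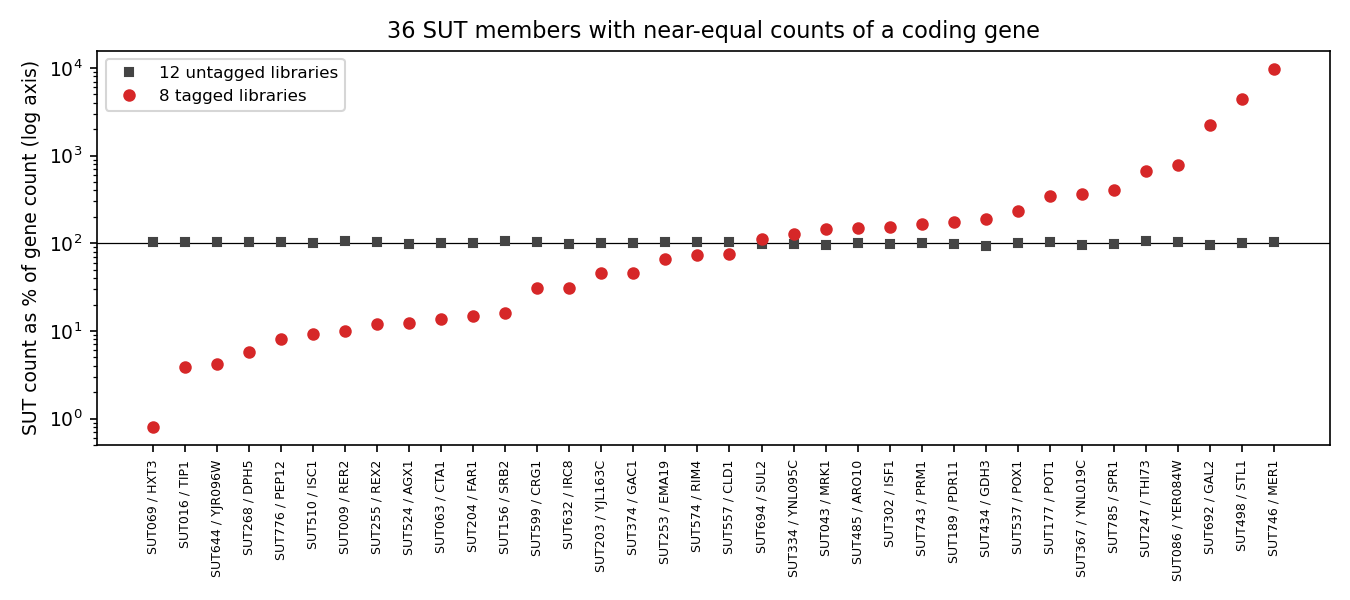
Count of each of the 36 near-equal SUTs as a percentage of the count of its coding gene (log axis), summed over the 12 untagged libraries (squares) and over the 8 tagged libraries (circles), with the pairs ordered by the tagged value. The squares lie along 100%, while the circles run from 0.799% (SUT069 with HXT3) to 9823% (SUT746 with MER1).

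In WT cells, H2O2 was followed by a rise of 64 and a fall of 11 of the 198 members tested (edgeR quasi-likelihood test, Benjamini-Hochberg adjusted p under 0.05 over 7378 features). Over all features tested 19.2% rose and 16.5% fell, and among the members these shares were 32.3% and 5.56%. The libraries that chose the members included those with high SRX1, so SUTs raised in such libraries could enter more readily. The excess of rises among the members, in any untagged strain, is therefore not free of the choice. The median log2 fold change of the members was 0.50, beside 0.02 for all features and -0.01 for coding genes. SUTs outside the 200 were called up in 19.1% (85 of 444) and down in 6.53%, and CUTs in 14.1% (83 of 588) and 9.69%. Without the near-equal members, 55 of 164 were up and 8 down. Without WT H2O2 replicate 1, 32 members were up and 3 down.

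The 8 largest rises in WT were led by SUT326, SUT063 and SUT524. SUT326 went from 6.14 and 6.22 CPM to 182 and 154 (log2 4.77, SE 0.36, adjusted p = 1.34e-07 by edgeR). SUT063, near-equal to the catalase gene CTA1, went from 12.3 and 14.1 to 293 and 248 CPM (log2 4.35, SE 0.28). SUT524, near-equal to AGX1, went from 6.40 and 9.77 to 122 and 128 CPM (3.90, SE 0.30). Rises were named only where the WT groups did not overlap, so that holds for these 3 members by choice. In the tagged libraries, where no such rule was used, the label groups of all 3 overlapped, with SUT326 at 3.77 to 7.96 CPM in all 8. SUT326 was near-equal to no gene, but its mean level was 8.49-fold higher in the untagged than in the tagged libraries, and SUT701, which rose by 3.71 (SE 0.40) from 6.40 and 19.4 to 200.8 and 156 CPM, was 13.3-fold higher there. What part reads of another feature had in these values was not tested.

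SUT357, SUT579, SUT714 and SUT018 completed the 8 largest rises. SUT357 went from 1.79 and 1.94 to 25.1 and 31.1 CPM (3.83, SE 0.38) and SUT579 from 6.14 and 3.95 to 48.2 and 61.0 (3.48, SE 0.33). Both were also higher in the libraries with high SRX1 among the tagged set, with SUT579 at 55.1 to 66.7 CPM in those labelled untreated against 8.40 to 11.1. SUT714 rose by 3.41 (SE 0.77, adjusted p = 0.00322 by edgeR) from 0.256 and 1.00 to 8.77 and 8.72 CPM, and its call was lost without WT H2O2 replicate 1. SUT018 rose by 3.25 (SE 0.42) from 6.66 and 10.9 to 105 and 63.5 CPM, with 10.98 to 14.8 CPM in each tagged library. SUT714 lay at 27.2 to 37.6 CPM in the libraries labelled untreated and 5.55 to 10.04 in those labelled H2O2.

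Of the 10 most abundant members, SUT670 (2.98, SE 0.30), SUT053 (2.80, SE 0.36), SUT720 (1.33, SE 0.29), SUT240 (1.31, SE 0.29) and SUT802 (0.70, SE 0.26, adjusted p = 0.0437 by edgeR) rose in WT, and SUT514 fell by 0.85 on the log2 scale (SE 0.25). The call for SUT240 was lost without WT H2O2 replicate 1, that for SUT514 without either WT H2O2 library, and that for SUT802 under most alternatives, DESeq2 and RLE scaling included. SUT060, the member with the widest gap in the tagged libraries, had 274 and 211 CPM in untreated WT and 374 and 375 after H2O2 (0.63, SE 0.28, adjusted p = 0.0901 by edgeR), a level 6.31-fold higher than in the tagged set. In sro9Δ its rise passed the test (1.03, SE 0.29, adjusted p = 0.0216). In WT, SUT322 (0.20, adjusted p = 0.596), SUT342 (0.64, adjusted p = 0.192) and SUT350 (-0.17, adjusted p = 0.962) did not pass edgeR's test.

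The largest fall in WT was at SUT388, from 7.17 and 14.5 CPM to 0.526 and 0 (log2 -4.56, SE 0.75). With 3 counts after H2O2, the untreated level was 28.1-fold higher with a 95% exact binomial interval of 9.49 to 137, which covers counting error only. Among the tagged libraries, SUT388 had the largest difference of any member toward those labelled H2O2, which had low SRX1 (-1.44). SUT204, near-equal to FAR1, went from 185 and 160 to 29.6 and 33.6 CPM (-2.47, SE 0.28), and SUT632, near-equal to IRC8, from 47.6 and 41.0 to 8.59 and 16.2 (-2.04, SE 0.36). The call for SUT632 was lost without WT H2O2 replicate 1. SUT797 (-1.62, SE 0.42), SUT440 (-1.35, SE 0.28), SUT038 (-1.29, SE 0.41), SUT379 (-1.11, SE 0.33) and SUT014 (-1.09, SE 0.37) were the others of the 8 largest falls. Of these 5, SUT440 kept its call without each library in turn, and SUT797, SUT038, SUT379 and SUT014 lost it without WT H2O2 replicate 1. SUT797 went from 70.4 and 27.8 to 15.4 and 16.2 CPM in WT. In the tagged set it stood higher in all libraries labelled untreated, which had high SRX1 (37.2 to 42.4 CPM). Those labelled H2O2 had 12.2 to 18.9 CPM.

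In sro9Δ cells, 40 members rose and 6 fell, where 10.8% of all features rose and 5.39% fell, and the median of the members was 0.50 beside 0.05 for all features. Here 34 of 164 were up without the near-equal members. The count of rises was 14 without sro9Δ untreated replicate 2, 25 without sro9Δ untreated replicate 1 and 23 without sro9Δ H2O2 replicate 2. The count of falls was 3 without any 1 of the sro9Δ libraries or either untreated slf1Δ library, and 10 without WT untreated replicate 1. SUT714 had 0 counts in both untreated libraries and 8.83 and 17.4 CPM after H2O2, at least 7.02-fold higher by a floor of 3 counts over the group, and its call was lost without sro9Δ untreated replicate 2 or H2O2 replicate 2. SUT670 went from 25.5 and 30.0 to 458 and 488 CPM (log2 4.04, SE 0.34), SUT053 from 3.18 and 3.20 to 52.0 and 40.2 (3.85, SE 0.52) and SUT063 from 19.1 and 12.8 to 163 and 217 (3.72, SE 0.33). In the untreated libraries SUT053 had 1 and 5 raw counts. The calls for SUT670, SUT053 and SUT063 held without each library in turn.

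SUT355 and SUT357 had 3 counts each in the untreated sro9Δ libraries, and after H2O2 they were 15.2-fold (95% exact binomial interval 5.16 to 74.3) and 10.96-fold (3.70 to 53.6) higher. SUT355 lost its call without sro9Δ untreated replicate 2. SUT326 (3.54, SE 0.45) and SUT701 (3.34, SE 0.47) were the other members among the 8 largest rises. SUT322, which did not pass in WT, passed the test here, from 41.4 and 24.3 to 98.5 and 70.9 CPM (1.53, SE 0.32), and in slf1Δ (1.38, SE 0.28). The falls in sro9Δ were at SUT388 (-2.98, SE 0.64), SUT204 (-1.998, SE 0.27), SUT632 (-1.85, SE 0.36), SUT014 (-1.20, SE 0.39), SUT334 (-1.11, SE 0.36) and SUT020 (-1.09, SE 0.34). SUT204 went from 178 and 118 to 40.2 and 31.0 CPM and SUT632 from 51.0 and 40.9 to 13.2 and 11.1, and of the 6 these were the members that kept the call without each library in turn. SUT388 fell by 1.14 without sro9Δ untreated replicate 2, and SUT014, SUT334 and SUT020 had adjusted p between 0.0394 and 0.0488 by edgeR and lost the call without any of several libraries.

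In slf1Δ cells, 41 members rose and 8 fell, where 11.8% of all features rose and 5.22% fell, and the median was 0.24 beside 0.02 for all features. Without the near-equal members it was 35 up of 164. The count of rises was 18 without slf1Δ H2O2 replicate 2, and 23 and 19 without slf1Δ untreated replicates 1 and 2. The count of falls was 2 without slf1Δ H2O2 replicate 2, 4 and 3 without slf1Δ untreated replicates 1 and 2, 4 without sro9Δ H2O2 replicate 2, 5 without sro9Δ untreated replicate 1, and 14 without either untreated WT library. SUT357 went from 1.68 and 0.791 to 18.8 and 19.5 CPM (log2 4.07, SE 0.45) and SUT701 from 11.8 and 11.2 to 169 and 129 (3.64, SE 0.42). The 18.8 CPM of SUT357 was 4 raw counts, in the shallow slf1Δ H2O2 replicate 1. SUT063 (3.16, SE 0.28), SUT326 (3.01, SE 0.37) and SUT053 (2.98, SE 0.41) rose as well, and these 5 calls held without each library in turn. SUT714 (3.65, SE 0.96), SUT355 (3.06, SE 0.58) and SUT352 (3.02, SE 0.33) lost theirs without slf1Δ untreated replicate 2, without that library or slf1Δ H2O2 replicate 2, and without slf1Δ H2O2 replicate 2, in this order.

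The falls in slf1Δ whose libraries did not overlap, 7 of the 8, were led by SUT388, from 16.5 and 15.0 CPM to 0 and 0.765 (-4.35, SE 0.63), followed by SUT746 (-2.15, SE 0.49), SUT221 (-2.05, SE 0.43), SUT335 (-1.44, SE 0.46), SUT204 (-1.39, SE 0.28), SUT632 (-1.11, SE 0.35) and SUT514 (-0.78, SE 0.26). SUT204 kept its call without each library in turn. SUT388, SUT746, SUT221, SUT335, SUT632 and SUT514 lost it without slf1Δ H2O2 replicate 2. Across the strains, 29 members were up in all 3 (14.6%, beside 7.78% of all features) and 70 in at least 1 (35.4%, beside 22.2%). Those down in all 3 were SUT388, SUT204 and SUT632 (1.52%, beside 2.24%), and 16 were down in at least 1 (8.08%, beside 19.1%). SUT204 and SUT632 were near-equal to a coding gene, and in the tagged libraries their label groups overlapped (log2 -0.60 and -0.01). Of the 164 members not near-equal to a gene, 23 were up in all 3 (14.0%) and 1 was down in all 3 (0.61%). The log2 fold change was positive in all 3 strains for 98 of 198 (49.5%, beside 34.8%).

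**Figure D3:**
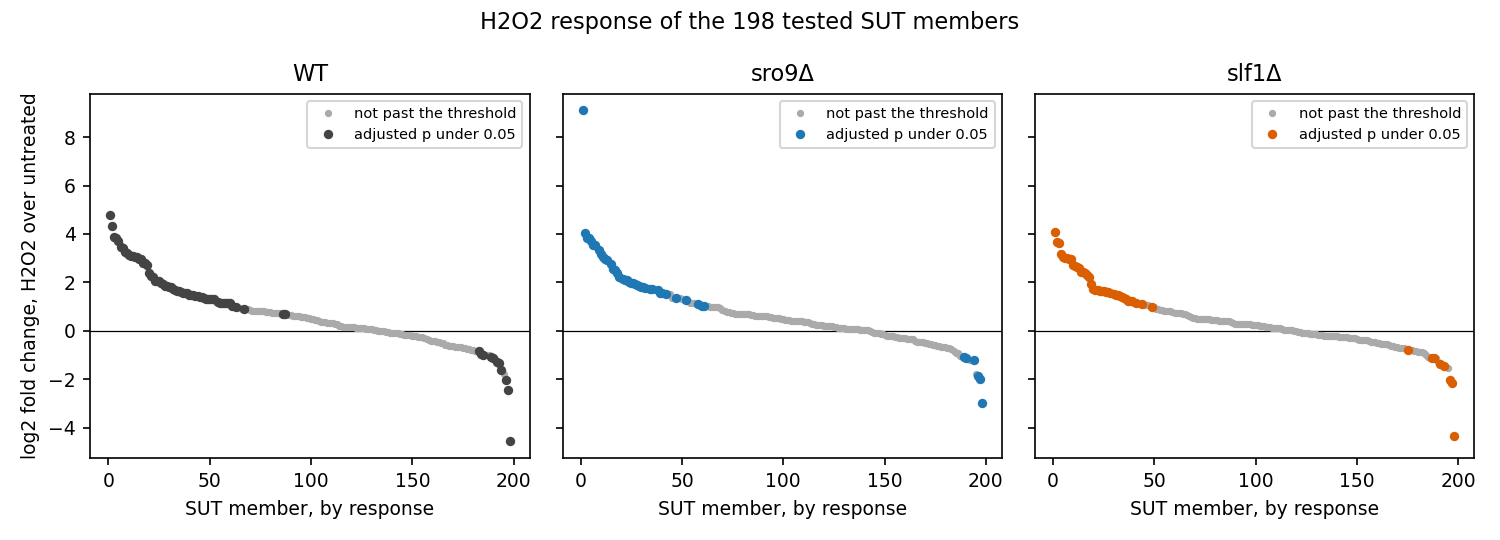
Log2 fold change of H2O2 over untreated (y axis) for the 198 tested members, ordered by response within each strain, with coloured points at an edgeR adjusted p under 0.05 and grey points otherwise. Coloured points above 0 number 64 in WT, 40 in sro9Δ and 41 in slf1Δ, and those below 0 number 11, 6 and 8. The point near 9 in sro9Δ is SUT714, with 0 counts in both untreated libraries.

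The tests of the difference in response between a deletion strain and WT gave 0 calls of 198 members in each, and 0.0% of all features, by edgeR. At an unadjusted p under 0.05 there were 12 members in sro9Δ (6.06%, beside 7.51% of all features) and 24 in slf1Δ (12.1%, beside 11.9%), and DESeq2 called 0 and 2. The smallest p in slf1Δ was at SUT435, whose rise was smaller by 2.61 (SE 0.53, adjusted p = 0.117 by edgeR), followed by SUT018 (-2.76), SUT374 (-2.31), SUT541 (-1.47) and SUT326 (-1.76) with adjusted p of 0.169 to 0.176. SUT435 and SUT018 were the members called by DESeq2. In sro9Δ they were SUT164 (-2.35), SUT223 (-1.98), SUT322 (1.33), SUT435 (-1.51) and SUT020 (-1.27), with adjusted p of 0.514 to 0.563. With edgeR, more members were called in each deletion strain when WT untreated replicate 2 was left out than when WT untreated replicate 1 was. The share of all features was not set beside these or the DESeq2 counts, so they show no difference particular to SUTs.

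After H2O2, 6 members differed between slf1Δ and WT, where 0.718% of all features did. SUT435 had 164 and 137 CPM in WT and 47.1 and 31.9 in slf1Δ (log2 -2.11, SE 0.40, adjusted p = 0.0245 by edgeR), and sro9Δ had 179 and 163. SUT018 had 105 and 63.5 against 23.5 and 14.7 CPM (-2.45, SE 0.47) and SUT326 182 and 154 against 61.2 and 46.4 (-1.75, SE 0.34). SUT807 (-1.79, SE 0.38) and SUT223 (-1.498, SE 0.32) were lower as well, while SUT261 was higher, with 25.3 and 16.2 CPM in WT and 61.2 and 63.2 in slf1Δ (1.501, SE 0.31). The WT and slf1Δ libraries did not overlap for any of the 6. The first slf1Δ value of each is from replicate 1, a shallow library. There SUT435 had 10 raw counts, SUT018 had 5, and SUT326 and SUT261 had 13 each. The count was 0 without either slf1Δ H2O2 library, 0 without WT H2O2 replicate 1, 1 without WT H2O2 replicate 2, 3 without either untreated library of slf1Δ or of sro9Δ, and 19 and 18 without WT untreated replicates 1 and 2. It was 0 without both libraries of low depth. All 6 had a mean untagged level more than 2-fold above their tagged level, and none was near-equal to a gene.

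**Figure D4:**
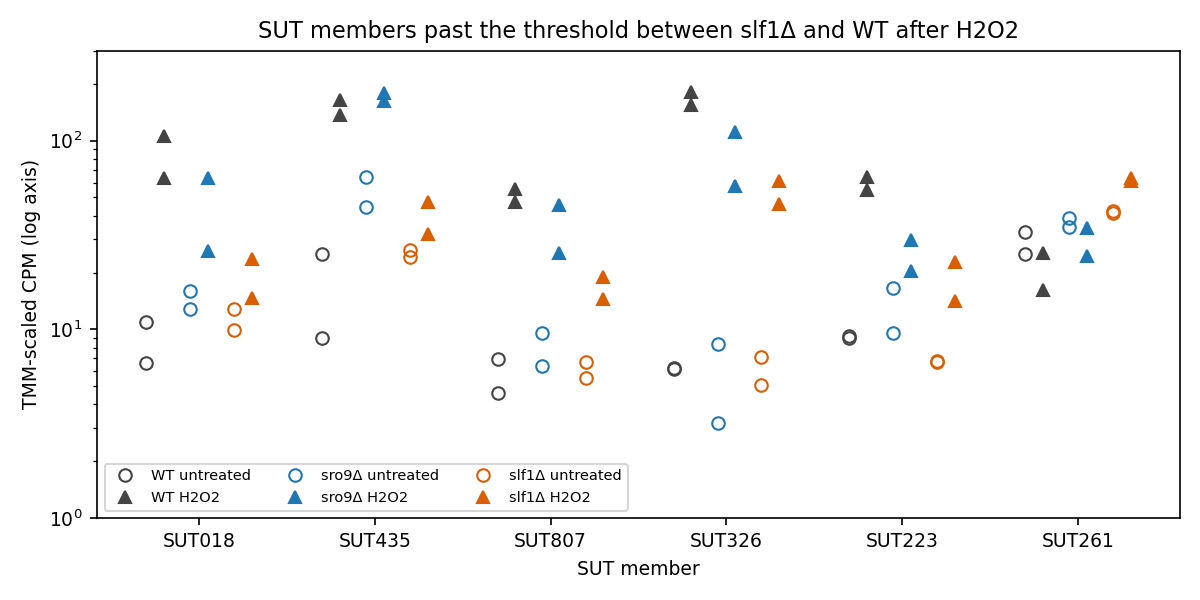
TMM-scaled CPM (log axis) in each untagged library for the 6 members past the threshold between slf1Δ and WT after H2O2, with open circles for untreated and filled triangles for H2O2, in grey for WT, blue for sro9Δ and orange for slf1Δ. SUT435 reached 164 and 137 CPM in WT and 47.1 (10 raw counts) and 31.9 in slf1Δ, and SUT261 shows the opposite order.

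In the other deletion contrasts 0 of 198 members passed edgeR's test, where 0.203% of all features did for sro9Δ against WT untreated, 0.0407% for sro9Δ against WT after H2O2 and 0.136% for slf1Δ against WT untreated. At an unadjusted p under 0.05 there were 21, 21 and 11 members (10.6%, 10.6% and 5.56%, beside 9.98%, 8.63% and 11.9% of all features), and DESeq2 called 2, 0 and 1. The smallest p among members in untreated sro9Δ were at SUT206 (2.30, adjusted p = 0.0690), SUT435 (1.69, adjusted p = 0.0934), SUT164 (1.78), SUT802 (0.94) and SUT541 (1.01). In sro9Δ after H2O2 they were at SUT223 (-1.28), SUT670 (1.03), SUT475 (0.85), SUT350 (1.04) and SUT650 (1.18), with adjusted p of 0.204 to 0.347. In untreated slf1Δ they were at SUT747 (-1.65), SUT797 (-1.30), SUT156 (1.04), SUT510 (0.66) and SUT111 (0.79), with adjusted p of 0.171 to 0.341. More members passed in the untreated contrasts when WT untreated replicate 2 was left out than when WT untreated replicate 1 was. Shares of all features were not set beside these or the DESeq2 counts.

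The 2 sets of libraries share no library, and the members' values in them were set side by side. In WT, 142 of 198 members (71.7%) had a log2 fold change of the same sign as their difference between tagged libraries labelled untreated and labelled H2O2, beside 72.5% of 5791 coding genes. Pearson's r across genes was 0.38 for the members and 0.70 for coding genes, and within the members it was 0.44 for the 164 not near-equal to a gene and 0.06 for 34 that were. Genes are not independent replicates and the libraries differ in depth and counting, so these are descriptions. Of the 40 members at least 2-fold higher in the libraries labelled untreated, 23 rose in WT (57.5%) and 1, SUT797, fell (2.5%), beside 56.3% and 1.45% of the 829 features chosen in the same way. A further description uses 109 members whose mean level was within 2-fold between the sets, a group chosen after values were seen. Of these, 28 rose and 5 fell in WT, 15 and 2 in sro9Δ, and 19 and 4 in slf1Δ, and r with the tagged difference was 0.57 in WT. The other members were more than 2-fold higher in the untagged set (56) or lower (35), while for CUTs the median untagged level was 6.04-fold that of the tagged.

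**Figure D5:**
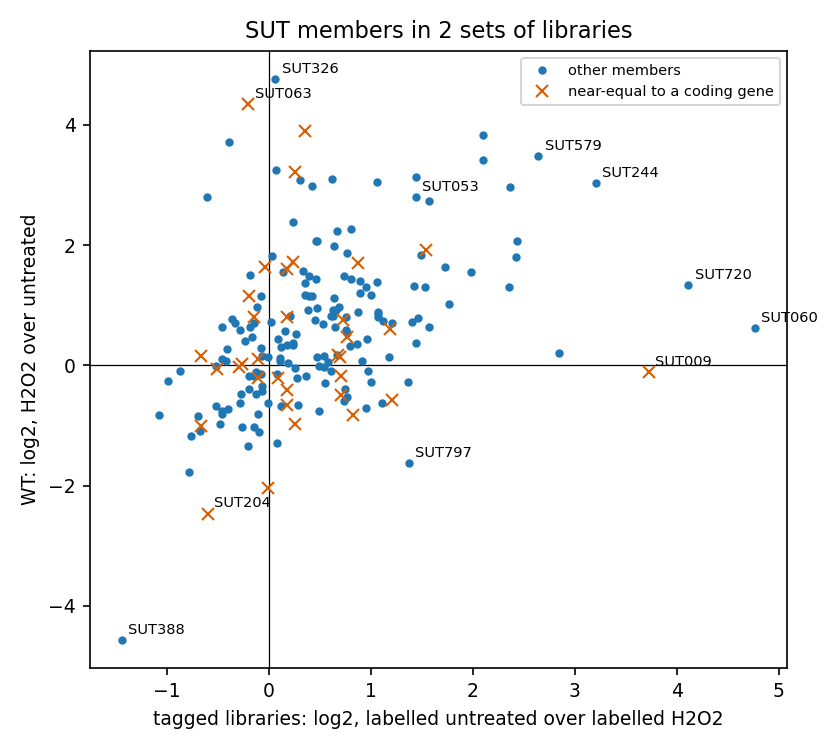
Each point is 1 of the 198 tested members, with its log2 difference between the tagged libraries labelled untreated and labelled H2O2 on the x axis and its log2 fold change with H2O2 in WT on the y axis, and crosses mark the near-equal members. SUT388 lies lowest on both axes (-1.44 and -4.56), SUT579 is high on both (2.64 and 3.48), and SUT060 is at 4.77 and 0.63.

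SUT053, the annotated member, had 14 and 67 raw counts in untreated WT and 142 and 29 after H2O2, which is 3.58 and 4.48 CPM against 24.9 and 36.1. In slf1Δ it went from 4.20 and 2.06 to 32.9 and 21.5 CPM, with 15 and 13 raw counts untreated and 7 and 365 after H2O2. In the tagged set it had 72.5 and 68.0 CPM in the libraries labelled Sro9-TAP untreated and 10.9 and 12.4 in those labelled Sro9-TAP H2O2, but 75.9 and 77.3 against 42.2 and 42.4 under the Slf1-TAP label. No group overlapped its counterpart. Its opposite neighbour SUT468 had 10, 44, 103 and 23 raw counts in the same WT libraries, and in the tagged libraries it had 87 to 188 where SUT053 had 390 to 2999. The neighbours' counts were thus alike in the untagged set and apart in the tagged set.

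SUT650 had 198 and 723 raw counts in untreated WT and HMS2, on the other strand, 151 and 551, while in the tagged libraries SUT650 had 177 to 570 and HMS2 2656 to 5360. SUT650 did not pass edgeR's test with H2O2 in WT (50.7 and 48.4 CPM against 27.5 and 39.9, log2 -0.62, adjusted p = 0.178), sro9Δ (0.02) or slf1Δ (-0.28). Its cluster of 14 bases, TGGTGTTGTAGACA, was listed in 7 of 8 PAR-CLIP libraries, extended to 15 and 20 bases in 2 of them. It had 10793 and 12119 reads in the libraries labelled Sro9-TAP untreated and 10992 and 11895 in those labelled Sro9-TAP H2O2. The libraries labelled Slf1-TAP untreated had 7411 and 5954 reads, and those labelled Slf1-TAP H2O2 had 11179 in replicate 1 and no listed cluster in replicate 2. These reads were 0.282% to 0.791% of all reads in clusters of each of the 7 libraries, and the cluster ranked between 18 and 38 by reads. Converted bases, the mark of a crosslink, were 0.0202% to 0.0625% of all T read in it, against 5.86% and 8.24% in the other 2 clusters of SUT650, which had 18 and 8 reads. The libraries labelled untreated and labelled H2O2 of Sro9-TAP overlapped, and no test was made.

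Genes that act on non-coding RNA, from a list of 47 for the exosome, its cofactors, termination, decapping and chromatin, were counted beside the SUTs. In WT 22 of 47 fell and 0 rose, where 16.5% of all features fell, and the median was -0.84. They included TRF5 (-3.74) and AIR1 (-2.12), of the TRAMP complex that marks RNA for the exosome, MTR4 (-2.38), its helicase, RRP6 (-1.54), the nuclear exosome exonuclease, RAT1 (-1.70), the nuclear 5′ exonuclease, SEN1 (-1.73), the termination helicase, and SET2 (-2.25), a histone methyltransferase. In sro9Δ 3 fell (TRF5, AIR1 and NAM7) and in slf1Δ 3 (SET2, TRF5 and NRD1), where 5.39% and 5.22% of all features fell, with medians of -0.25 and -0.21. The difference between strains was not tested for the list, and what these genes had to do with the SUTs was not tested.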

How the data were processed

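Total RNA was depleted of rRNA, reads were trimmed with Trim Galore and mapped with Bowtie (1.2.0 in the submitters' processing notes) to sacCer3 (R64), and the authors counted them with featureCounts. The deposited total RNA values are raw counts per feature without normalization, and the deposited PAR-CLIP cluster tables give counts of reads and conversions. Here 39 features of the rRNA locus were left out, and the 12 untagged libraries were fitted together as 6 groups with edgeR 4.0.16 (TMM, filterByExpr, quasi-likelihood test, 6 residual degrees of freedom, R 4.3.3), with DESeq2 1.42.0 as an alternative. p-values were adjusted over 7378 features and called under 0.05. SE is the absolute log2 fold change divided by the square root of the test's F statistic. It is thus no separate estimate of spread and need not match the p-value. Other tables used Python, and the fit was tested on simulated data. Sequences and positions came from RefSeq R64 and the deposited clusters. 1 feature in the untagged tables alone was dropped.

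The members and lists were chosen with earlier results of these data known. Members named are the 10 most abundant, the 8 largest called rises and falls per strain with no overlap of libraries, the 15 most abundant near-equal ones, the 5 smallest p of each other contrast and the edge of the choice. SUT009, SUT069, SUT244, SUT339, SUT644 and SUT692, and the clusters of SUT650, were named after their values were seen. Libraries are duplicates by label, and p-values measure only the spread between them. The alternatives leaving out the 2 shallow libraries, and keeping members within 2-fold of their tagged level, were added after seeing the data.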

Additional observations from a re-analysis of the deposited data

How the results depend on the processing

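In 2 untagged libraries the median member had 3 counts, which limits what these show of low members. Counts of calls below stand without the share of all features in the same fit, so they describe only how far the calls depend on the processing. Leaving out one library gave 32 to 65 members called up in WT, 14 to 49 in sro9Δ and 18 to 49 in slf1Δ, and 3 to 14, 3 to 10 and 2 to 14 called down. It gave 0 to 7 (sro9Δ) and 0 to 17 (slf1Δ) calls for the difference in response, 0 to 11 (untreated) and 0 to 1 (H2O2) for sro9Δ against WT, and 0 to 15 and 0 to 19 for slf1Δ against WT.

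With DESeq2, 6 members were down in WT and 3 in slf1Δ, 2 differed in response in slf1Δ, and 2 (sro9Δ) and 1 (slf1Δ) differed from WT untreated. Each strain alone gave 6 down in WT and 19 in slf1Δ. With no filter, 1 member differed between sro9Δ and WT untreated. At an adjusted p under 0.01, 5 were down in WT, 23 up and 3 down in sro9Δ, 26 up and 4 down in slf1Δ, and 0 differed between slf1Δ and WT after H2O2. The first 100 members gave 35 up in WT, 22 up in sro9Δ, 23 up and 5 down in slf1Δ, 2 between slf1Δ and WT after H2O2, and 22 of the 2-fold differences in the tagged libraries. Without near-equal members, 3 were down in sro9Δ and 5 in slf1Δ. Near-equal members numbered 36 over the untagged and 3 over the tagged libraries, against 0 over all 20, and the wider tolerance gave 117 and 98, the narrower 14 and 0.

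Of the alternatives chosen after seeing the data, leaving out both shallow libraries gave 25 up and 3 down in sro9Δ and 0 between slf1Δ and WT after H2O2. Members within 2-fold of their tagged level gave 28 up and 5 down in WT, 15 and 2 in sro9Δ, 19 and 4 in slf1Δ, 0 between slf1Δ and WT after H2O2, and 22 tagged differences. Cultures were split for the treatment, but the labels do not say that a number marks a shared culture. A replicate block with a term for each strain and number (3 residual degrees of freedom, 6 without it) gave 59 up and 10 down in WT, 31 and 5 in sro9Δ, 33 and 4 in slf1Δ, and 1 member, SUT435, that differed in response in slf1Δ. The number alone as a block gave 9 between slf1Δ and WT after H2O2 and 0 in the other deletion contrasts. Deviations of same-numbered untreated and H2O2 libraries correlated at -0.08 (WT), -0.04 (sro9Δ) and 0.19 (slf1Δ). Between strains they correlated at 0.14 to 0.35 for untreated and -0.26 to -0.01 for H2O2 libraries, so a pairing was not established.

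Of named values in WT, those that changed sign when one library was left out did not pass the threshold to begin with: SUT016 (-0.27 to 0.74, and -0.13), SUT043 (-0.44 to 0.28), SUT342 (-0.31 to 0.89), SUT350 (-0.50 to 0.17), SUT434 (-0.0044 to 1.62), SUT485 (-0.18 to 0.96) and SUT498 (-0.45 to 0.0103). The cause was not tested. Under other alternatives 0 of 661 named values changed sign and 41 lost their call. Calls were lost in a larger share of the named values when a single library was left out.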
